A study of Mus musculus with 2 samples.

Results

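The genes described here encode enzymes of haem synthesis and the carrier that feeds the first step. They are Alas1, Alas2, Alad, Uros, Urod, Cpox, Ppox, Fech and Slc25a38, and they were chosen by symbol, 9 of the 32285 genes counted. The cells came from marrow of C57Bl6 mice of WT genotype, 8 weeks old by the title of the series, and their RNA was counted cell by cell in 10x droplet libraries. LSK denotes marrow cells without lineage markers that carry Sca-1 and Kit. By the series' design text, the gate for LT-HSC (the long-term haematopoietic stem cells, HSCs) took the LSK fraction with CD150 and without CD34, CD48 or Flk2. That for ST-HSC (the short-term ones) took the fraction with both CD150 and CD48 and without CD34. Each group is a single library (1 per group), no group was treated, and how many animals were pooled is not given in the sources used here. Library and group therefore cannot be told apart, no p-value is given, and differences are described by their size.

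Haem is an iron-porphyrin that carries oxygen in haemoglobin and electrons in cytochromes, and it sits at the active site of peroxidases and catalase. Synthesis starts in mitochondria, where aminolaevulinate synthase joins glycine to succinyl-CoA, passes through the cytosol for the middle steps, and returns to mitochondria for the last steps, in which ferrochelatase inserts iron. The first step has a housekeeping enzyme, encoded by Alas1, and an erythroid enzyme, encoded on the X chromosome by Alas2, whose gene is bound by the erythroid factor GATA1 and whose mRNA is held back when iron is short. In marrow the pathway is known for its rise as erythroid progenitors prepare to make haemoglobin.

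Sequences upstream of 4 of the genes are shown, because the results turn on them: the erythroid first-step gene and the 3 downstream genes with the highest ratios of Car1-high to Hlf-high cells in the LT-HSC library (classes defined further on). They were read from RefSeq promoter windows on GRCm38.p6 (mm10), in which 8 of the 9 genes matched, with 11 windows. Each is written 5′ to 3′ on the strand of its gene and ends just before the RefSeq start, except that of Alas2, which stops at position -43, just before an annotated exon. They lie at chrX:150547167-150547374 on the plus strand (Alas2), chr4:62520064-62520313 on the minus strand (Alad), chr4:116994414-116994663 on the minus strand (Urod) and chr16:58669958-58670207 on the plus strand (Cpox). Capitals mark matches to GATA forms (the form AGATAA, the form AGATAG, the form TGATAA or the form TGATAG), to the E-box CACGTG, or to the GC-rich form CCNCNCCC, all searched on both strands.
Alas2: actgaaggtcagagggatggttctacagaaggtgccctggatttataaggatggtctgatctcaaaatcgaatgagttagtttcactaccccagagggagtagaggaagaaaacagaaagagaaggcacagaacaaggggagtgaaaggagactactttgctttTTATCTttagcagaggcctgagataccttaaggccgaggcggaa
Alad: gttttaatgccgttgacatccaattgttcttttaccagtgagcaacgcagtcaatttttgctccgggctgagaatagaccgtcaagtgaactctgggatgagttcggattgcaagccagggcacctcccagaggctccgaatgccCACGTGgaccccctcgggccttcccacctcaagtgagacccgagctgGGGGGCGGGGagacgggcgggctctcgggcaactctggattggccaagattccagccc
Urod: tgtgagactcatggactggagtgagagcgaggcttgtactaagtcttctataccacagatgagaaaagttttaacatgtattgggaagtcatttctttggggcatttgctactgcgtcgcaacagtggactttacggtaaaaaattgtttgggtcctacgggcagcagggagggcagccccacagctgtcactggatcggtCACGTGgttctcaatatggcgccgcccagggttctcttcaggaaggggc
Cpox: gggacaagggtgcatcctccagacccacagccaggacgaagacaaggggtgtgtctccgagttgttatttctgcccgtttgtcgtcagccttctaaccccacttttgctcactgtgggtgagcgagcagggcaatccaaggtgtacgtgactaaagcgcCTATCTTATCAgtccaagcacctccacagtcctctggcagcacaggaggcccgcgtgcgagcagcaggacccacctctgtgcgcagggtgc

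The Alas2 window held AGATAA on the opposite strand at positions -86 to -81 from its start. That of Cpox held AGATAG at -91 to -86 and TGATAA at -86 to -81, both on the opposite strand and sharing 1 base. A GATA form was present in 26.5% of all 32851 windows of 250 bases and in 3 of the 11 windows of these genes (Alas2, Cpox and Uros). The E-box in the printed window of Alad lay at -105 to -100 and that of Urod at -49 to -44. Another Alad window, from a different RefSeq start and not printed, held CACGTG at -28 to -23. The RefSeq starts used for Alad (62520063) and Cpox (58670208) lie upstream of the annotated gene spans given below. CACGTG was present in 6.02% of all windows and in 4 of the 11, which belong to Alad, Urod and Uros. CCNCNCCC was present in 45.9% of all windows and in 7 of the 11. These matches are descriptions of letters and were not tested as binding sites.

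On mm10, with the GENCODE M21 annotation, Alas1 lies on chromosome 9 (106233455 to 106248654, minus strand), Alas2 on X (150547375 to 150570638, plus), Alad on 4 (62509169 to 62519918, minus), Uros on 7 (133686243 to 133710072, minus) and Urod on 4 (116989965 to 116994413, minus). Cpox lies on chromosome 16 (58670292 to 58717636, plus), Ppox on 1 (171275990 to 171281186, minus), Fech on 18 and Slc25a38 on 9 (120110374 to 120124504, plus). All 9 are protein-coding. Alas1, Alas2, Uros, Cpox and Ppox each overlap a gene on the other strand, and whether counting used strand is not given in the sources used here, so part of their counts could belong to 4930500F10Rik, Apex2, Bccip, Gpr15 and B4galt3 respectively.

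The LT-HSC library held 2722 cells with at least 1000 genes and under 10% mitochondrial counts, of 2938 barcodes, and the ST-HSC library 6648 of 7586. The kept cells had 64673871 and 111783180 unique molecular identifiers (UMIs, which count RNA molecules), with medians of 17595 and 13402 per cell. The libraries shared 8 barcodes, 6 of them kept. All 10 HSC markers were detected in both. However, Slamf1, which encodes the CD150 of both gates, was at 26.5 CPM (UMIs of a gene per 1000000 UMIs of the cells) in the LT-HSC library. It was at 1.26 CPM in the ST-HSC library, against the gate stated for the latter. Flt3, which encodes Flk2, was at 5.50 and 291 CPM. Every comparison between the libraries below carries this difference in makeup.

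Cells were grouped by 3 genes that are no haem genes. Car1-high cells had at least 50 UMIs per 10000 of Car1, the carbonic anhydrase of early erythroid cells, Pf4-high cells at least 10 of Pf4, the platelet chemokine of megakaryocytes, and Hlf-high cells at least 3 of Hlf, a transcription factor of HSCs. Each class is a range of a level and not a cell type. In the LT-HSC library 458 cells were Car1-high, 246 Pf4-high and 774 Hlf-high, 8 passed more than 1 of these limits and 1235 were in no class. Of ST-HSC cells, 42 were Car1-high, 4 Pf4-high and 3811 Hlf-high, with 1900 in no class. Within 25% of the Car1 limit lay 113 LT-HSC cells below and 112 above, and 81 ST-HSC cells below and 32 above. Within 25% of the Hlf limit lay 154 below and 131 above in LT-HSC, and 409 below and 398 above in ST-HSC, and within 25% of the Pf4 limit 28 below and 17 above in LT-HSC. The 12 erythroid markers, Car1 itself among them, summed to 12243 CPM in Car1-high, 1178 in Pf4-high and 1088 in Hlf-high LT-HSC cells. In ST-HSC they summed to 10997 CPM in Car1-high and 682 in Hlf-high cells. Much of the Car1-high sums is set by the class limit. Car1 alone stood at 7216 CPM in LT-HSC cells of 50 to 100 Car1 UMIs per 10000, and at 12250 CPM in those of at least 100. Outside these classes the ST-HSC library held 678 Dntt-high cells (at least 2 per 10000 of the lymphoid gene Dntt) and 203 Mpo-high cells (at least 10 per 10000 of Mpo, the myeloperoxidase of neutrophil and monocyte precursors). All 6 neutrophil-monocyte markers, Mpo itself among them, were detected in the Mpo-high cells, at a sum of 18800.5 CPM that the Mpo limit sets in part.

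The downstream enzymes and the first-step enzymes followed different patterns. From Alad to Fech, and for Slc25a38, levels were higher in the Car1-high cells than in the other named classes of either library. In the ST-HSC library, most of these genes had higher values still in a few globin-rich cells. The same held in cells of 10 to 50 Car1 UMIs per 10000, under the Car1-high limit. There some excesses lay within counting error, as for Cpox at 293 against 277 CPM (252 to 304) in Car1-high cells. Urod was lower there, at 151 against 163 CPM. Alas1 was at nearly 1 level in Hlf-high, Pf4-high and Car1-high cells, and about 10 times higher in Mpo-high cells. Alas2 was scarce in every class. CPM is a level and a ratio a difference between levels, and the ranges in parentheses are exact 95% intervals that cover counting error only.

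**Figure D1:**
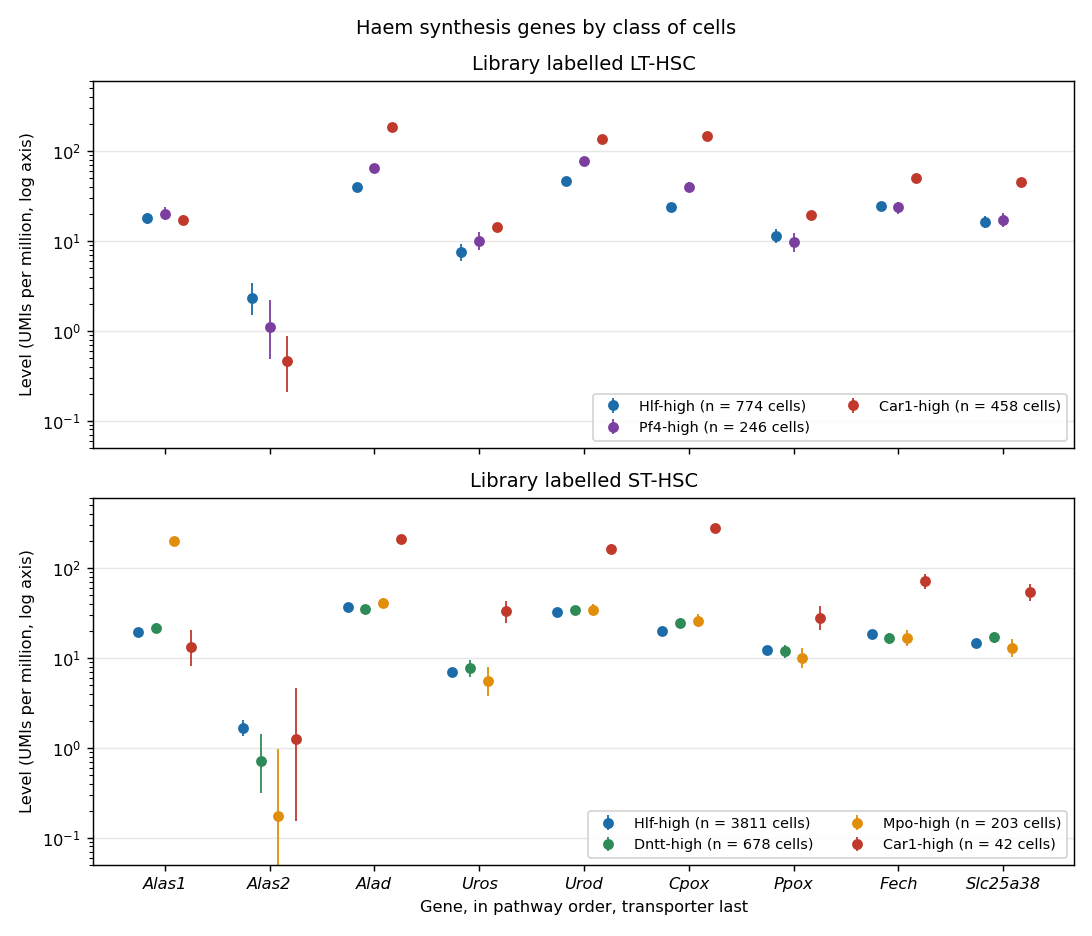
Level of each haem synthesis gene in CPM, on a log axis, by class of cells in each library; points are summed UMIs of the class over its total and bars are exact Poisson 95% intervals. Alad, Urod and Cpox are highest in Car1-high cells (red), Alas1 in Mpo-high cells (orange, 198 CPM), and Alas2 lies at or under 2.31 CPM throughout.

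Alas1, the housekeeping synthase that sets the pace of the pathway in most tissues, stood at 17.8 CPM (15.4 to 20.4) in Hlf-high, 20.1 (16.9 to 23.6) in Pf4-high and 17.3 (15.5 to 19.2) in Car1-high LT-HSC cells. Among ST-HSC cells it stood at 19.5 CPM (18.4 to 20.7) in Hlf-high, 21.7 (19.0 to 24.6) in Dntt-high, 13.3 (8.24 to 20.3) in Car1-high and 198 (186 to 209) in Mpo-high cells. Mpo-high cells stood apart, and the intervals of the other 6 classes all overlapped. The ratio of Car1-high to Hlf-high cells was 0.97 (0.81 to 1.16) in the LT-HSC library and 0.68 (0.42 to 1.05) in the ST-HSC library. Scaling by edgeR's TMM factors turned the first of these from a log2 ratio of -0.04 to 0.61. That scaling moves every gene of the comparison by 0.65, and Alas1 lay 0.40 above the median of all genes.

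Alas2, the erythroid synthase, was scarce. It had 85 UMIs in 82 LT-HSC cells and 198 UMIs in 165 ST-HSC cells, or 1.31 CPM (1.05 to 1.63) and 1.77 CPM (1.53 to 2.04). The LT-HSC library showed 2.31 CPM (1.51 to 3.38) in Hlf-high, 1.11 (0.481 to 2.19) in Pf4-high and 0.458 (0.210 to 0.870) in Car1-high cells. Car1-high cells, with the most erythroid marker RNA (Car1 itself included), thus had the lowest value of the 3. Their ratio to Hlf-high cells, 0.20 (0.082 to 0.44), rests on 9 and 26 UMIs. ST-HSC values were 1.67 CPM (1.36 to 2.04) in Hlf-high, 0.719 (0.311 to 1.42) in Dntt-high and 0.174 (0.0044 to 0.968) in Mpo-high cells, with 2 UMIs in Car1-high cells. Alas2 overlaps Apex2 on the other strand, and the part of Apex2 transcripts in these counts was not tested.

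To set depth aside, each cell was thinned to 5000 UMIs. An Alas2 UMI then remained in 1.06% (0.457 to 2.07) of Hlf-high, 0.219% (0.00555 to 1.22) of Car1-high and 0% (0 to 1.51) of Pf4-high LT-HSC cells. Among ST-HSC cells it remained in 0.874% (0.599 to 1.23) of Hlf-high cells, beside 0.453% (0.0936 to 1.32) of Dntt-high and 0% (0 to 1.80) of Mpo-high cells, which are of lineages that should lack the gene. The intervals of these shares overlapped, and each rests on few cells. With all UMIs, the Alas2 level in Mpo-high ST-HSC cells was 0.10 (0.0026 to 0.59) of that in Hlf-high cells, on 1 and 98 UMIs, and in Dntt-high cells 0.43 (0.18 to 0.88), on 8 and 98 UMIs. Without thinning the shares of these ST-HSC classes were 2.47%, 1.18% and 0.493%, at median depths of 11953, 14855.5 and 27743 UMIs, and those of Hlf-high and Car1-high LT-HSC cells were 3.10% and 1.97%.

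Alas2 made up 6.97% (5.60 to 8.54) of the UMIs of both synthase genes in the LT-HSC library and 5.96% (5.18 to 6.82) in the ST-HSC library. By class the share was 11.5% (7.65 to 16.4) in Hlf-high, 5.26% (2.30 to 10.1) in Pf4-high and 2.59% (1.19 to 4.85) in Car1-high LT-HSC cells. It was 7.90% (6.46 to 9.54) in Hlf-high and 0.0879% (0.00222 to 0.489) in Mpo-high ST-HSC cells. Alas1 thus held most synthase UMIs in every one of these classes, Car1-high cells included.

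A different pattern was found in a few globin-rich cells of the ST-HSC library. In 4 cells with at least 100 Hbb-bs UMIs per 10000 (Hbb-bs encodes an adult beta globin), Alas2 had 22 of the 198 UMIs of its library, 595 CPM (373 to 901), while Alas1 had 0 UMIs of 36974, which allows up to 99.8 CPM. In the same cells Alad and Fech stood at 757 CPM each (503 to 1094), Cpox at 595 and Urod at 541. In 5 cells of 10 to 100 Hbb-bs UMIs per 10000, Alas2 stood at 24.2 CPM (6.6 to 62.1), and in 96 cells of 1 to 10 it stood at 5.66 (2.59 to 10.7). The LT-HSC library had 0 kept cells past 10 Hbb-bs UMIs per 10000. These ranges of Hbb-bs were drawn after the data were seen.

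The downstream enzymes were compared first between Car1-high and Hlf-high cells of the LT-HSC library. Of the 8 genes measured, which is all but Alas2, 7 were at least 1.5-fold higher in Car1-high cells, against 17.5% of the 10265 genes measured, and 0 were lower, against 45.1%. The filter on measured genes was a mean of 5 CPM over both classes. Past 2-fold were 5 of the 8, against 9.47% of genes. With TMM factors the background was 36.6% higher and 26.4% lower, and 8 of 8 were higher. The median log2 ratio of the 8 was 1.26, beside -0.44 over all measured genes. Both classes differed in depth, with medians of 39551.5 and 12125.5 UMIs, and in cycling, with 39.7% and 3.23% of cells at or above 0.2% of UMIs from 14 cycling genes. The part of depth was not tested. Without the cycling cells the 7 genes had log2 ratios of 0.76 (Ppox) to 2.50 (Cpox).

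Alad, which joins aminolaevulinate molecules to the first pyrrole, stood at 39.6 CPM (36.0 to 43.5) in Hlf-high, 64.5 (58.7 to 70.6) in Pf4-high and 184 (178 to 191) in Car1-high LT-HSC cells. The 3 intervals did not overlap, and the ratio of Car1-high to Hlf-high cells was 4.65 (4.22 to 5.15). Uros, which closes the tetrapyrrole ring in its useful form, was the weakest signal among the cytosolic enzymes. It stood at 7.55 CPM (6.03 to 9.34), 10.0 (7.84 to 12.6) and 14.1 (12.5 to 15.9), so that Hlf-high and Pf4-high cells overlapped, and the Car1-high to Hlf-high ratio was 1.87 (1.46 to 2.41). Urod, which trims the side chains of uroporphyrinogen, stood at 46.4 CPM (42.5 to 50.5), 77.8 (71.5 to 84.6) and 135 (130 to 140), a ratio of 2.91 (2.64 to 3.20).

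The mitochondrial enzymes followed. Cpox, which oxidises coproporphyrinogen on the return to mitochondria, stood at 23.6 CPM (20.9 to 26.7) in Hlf-high, 39.8 (35.3 to 44.7) in Pf4-high and 146 (141 to 152) in Car1-high cells. Its Car1-high to Hlf-high ratio of 6.20 (5.46 to 7.05) was the highest of the 8. Ppox, the oxidase that makes protoporphyrin, stood at 11.5 CPM (9.57 to 13.6), 9.61 (7.48 to 12.2) and 19.4 (17.5 to 21.5), and Fech, the ferrochelatase, at 24.3 CPM (21.5 to 27.3), 23.5 (20.1 to 27.4) and 50.1 (47.0 to 53.3). For both, Hlf-high and Pf4-high cells overlapped and Car1-high cells lay above, at ratios to Hlf-high cells of 1.69 (1.38 to 2.08) and 2.06 (1.80 to 2.37). Slc25a38, the mitochondrial carrier that brings in glycine for the first step, stood at 16.2 CPM (13.9 to 18.7), 17.1 (14.2 to 20.4) and 45.1 (42.2 to 48.1), a ratio of 2.79 (2.37 to 3.29).

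**Figure D2:**
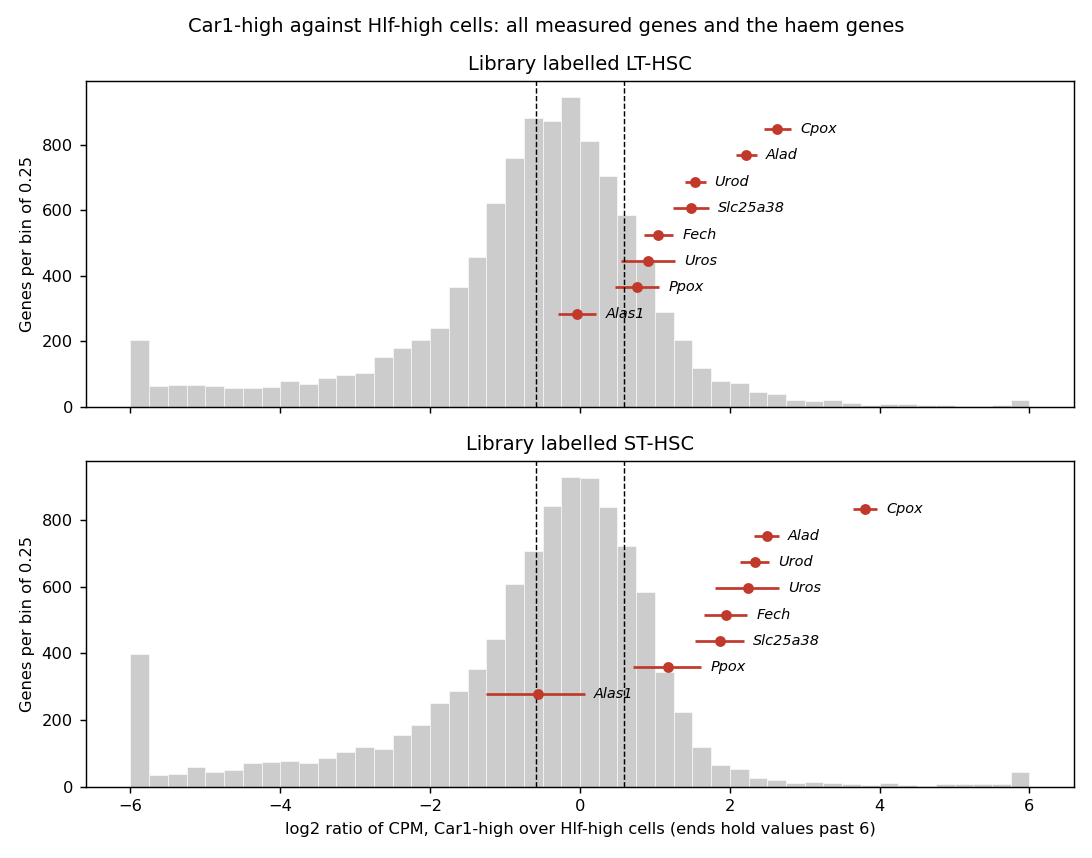
Histogram of log2 ratios of CPM, Car1-high over Hlf-high cells, for all measured genes (grey, genes per bin of 0.25, left axis) with the 8 measured haem genes as red points at arbitrary heights and exact 95% intervals; dashed lines mark 1.5-fold. In each library 7 of the 8 points lie right of the upper line, with Cpox farthest right, and Alas1 does not.

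The same comparison within the ST-HSC library rested on 42 Car1-high cells. Again 7 of 8 measured genes were at least 1.5-fold higher, against 19.9% of 10166 genes, and all 7 were at least 2-fold higher, against 9.79%. By the median of ratios the background was 27.2% higher and 33.7% lower, in place of 19.9% and 40%, with 7 of 8 still higher. The ratios to Hlf-high cells were 13.97 (12.48 to 15.60) for Cpox, 5.62 (4.99 to 6.31) for Alad, 5.04 (4.41 to 5.75) for Urod, 4.74 (3.48 to 6.33) for Uros, 3.87 (3.16 to 4.71) for Fech, 3.66 (2.89 to 4.57) for Slc25a38 and 2.27 (1.63 to 3.07) for Ppox. Cpox went from 19.8 CPM (18.7 to 21.0) in Hlf-high to 277 (252 to 304) in Car1-high cells. The median log2 ratio was 2.10 for the 8 genes and -0.24 over all genes with a UMI on both sides.

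Pf4-high LT-HSC cells were closer to Hlf-high cells. Of 8 genes, 3 were at least 1.5-fold higher, against 13.4% of 10467 genes: Alad at 1.63 (1.43 to 1.86), Urod at 1.68 (1.49 to 1.89) and Cpox at 1.69 (1.42 to 2.0). The background was 28.9% lower, and with TMM factors 21.7% higher and 19.9% lower. The other measured genes lay between 0.84 (0.62 to 1.13, Ppox) and 1.33 (0.96 to 1.84, Uros). With TMM factors, which raise every log2 ratio of this comparison by 0.25, Uros also passed 1.5-fold. Against Pf4-high cells, Car1-high cells were at least 1.5-fold higher in 6 of 8 genes, against 8.39% of 9531 genes higher and 27.5% lower, or 21.8% and 16.8% with TMM factors, from 1.73 (1.58 to 1.90) for Urod to 3.68 (3.26 to 4.17) for Cpox. Uros was at 1.41 (1.08 to 1.85), and past 1.5-fold with TMM factors, and Alas1 was at 0.86 (0.71 to 1.05). These classes were close in cycling, at 37.0% of Pf4-high and 39.7% of Car1-high cells. The 4 Pf4-high ST-HSC cells had 22 UMIs of the 9 genes in all and were not compared.

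The amount of downstream message per Alas1 message differed widely between classes. In the LT-HSC library there were 1.33 Cpox UMIs (1.10 to 1.61) for each Alas1 UMI in Hlf-high, 1.99 (1.62 to 2.44) in Pf4-high and 8.48 (7.58 to 9.52) in Car1-high cells. Among ST-HSC cells there were 1.01 (0.934 to 1.10) in Hlf-high, 20.8 (13.4 to 34.0) in Car1-high and 0.132 (0.111 to 0.157) in Mpo-high cells. The order ran from Mpo-high through Hlf-high to Car1-high, with intervals that did not overlap. After thinning to 5000 UMIs, cells held on average 2.10 of the 9 genes in Car1-high, 1.17 in Pf4-high and 0.863 in Hlf-high LT-HSC cells, and 2.74, 0.717 and 1.17 in Car1-high, Hlf-high and Mpo-high ST-HSC cells.

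Over ranges of Car1, levels differed step by step. From 0 to 2, 2 to 10, 10 to 50, 50 to 100 and at least 100 Car1 UMIs per 10000, with 1782, 93, 388, 355 and 104 LT-HSC cells, Alad stood at 53.0, 77.6, 127, 178 and 209 CPM. Cpox stood at 28.6, 50.1, 84.0, 147 and 145 CPM, flat over the last ranges, and Alas1 at 18.8, 18.2, 14.3, 17 and 18.9 CPM, where neighbouring ranges overlapped in their intervals and the last was close to the first. Alas2 stood at 1.85, 2.45, 1.12, 0.512 and 0.246 CPM. For ST-HSC, with 6238, 63, 305 and 42 cells in the first 4 ranges, Alad stood at 38.4, 133, 249 and 208 CPM and Cpox at 19.0, 162, 293 and 277 CPM. There the level was highest at 10 to 50 and lower at 50 to 100, with intervals of 240 to 259 and 187 to 232 CPM for Alad that did not overlap and of 284 to 303 and 252 to 304 CPM for Cpox that did. Alas2 did not follow its LT-HSC values in ST-HSC, at 1.65, 2.91, 2.78 and 1.27 CPM on 161, 3, 32 and 2 UMIs.

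**Figure D3:**
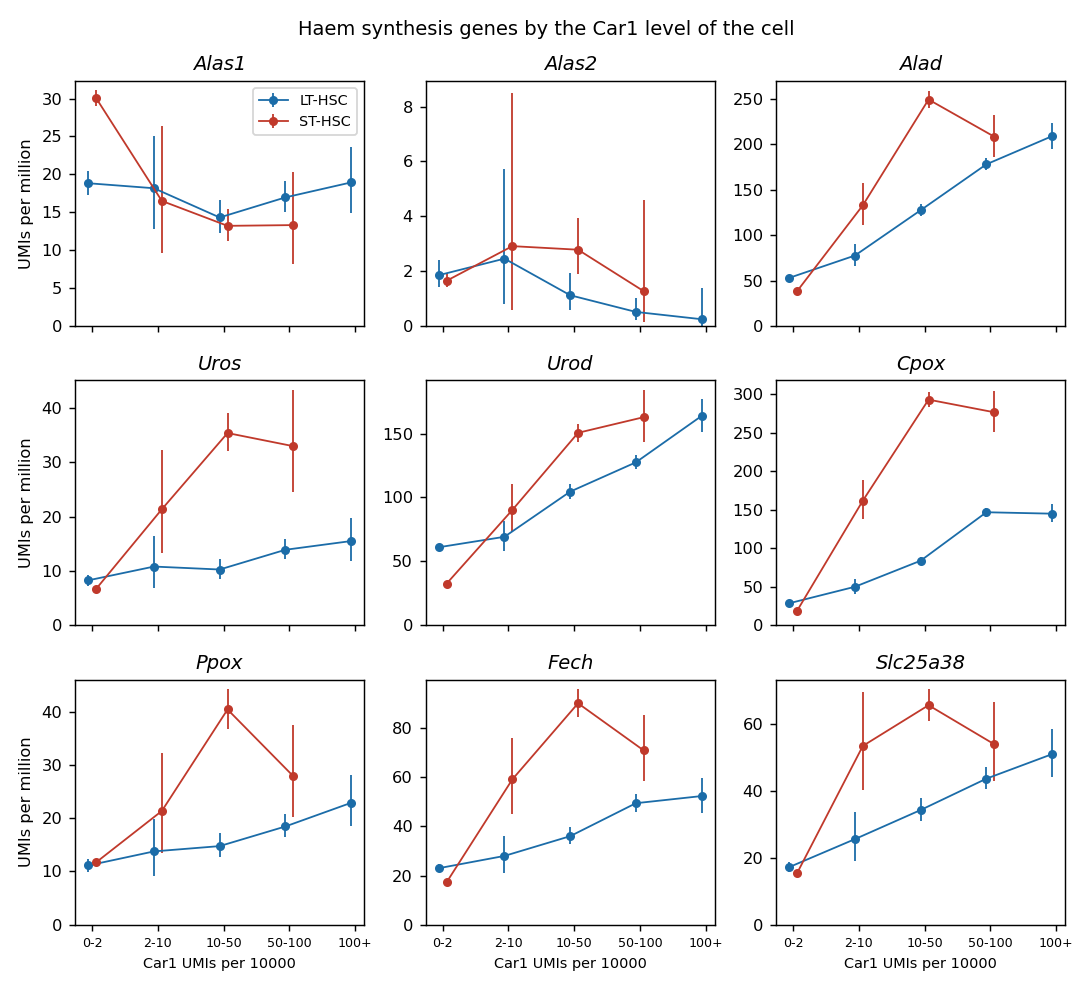
Level of each haem synthesis gene (CPM, linear axes of differing range) by the Car1 level of the cell (UMIs per 10000), for the LT-HSC (blue) and ST-HSC (red) libraries; bars are exact Poisson 95% intervals. From Alad to Slc25a38 the ST-HSC points lie above the LT-HSC points at 10 to 50 Car1 UMIs, with Cpox at 293 against 84.0 CPM, and Alas1 does not.

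At 10 to 50 Car1 UMIs per 10000, the libraries had nearly the same Car1 level, 3106 CPM over 388 LT-HSC cells and 2943 CPM over 305 ST-HSC cells. In this comparison, chosen after the ranges were seen, 6 of 8 genes were at least 1.5-fold higher in ST-HSC, against 12.8% of 9498 genes, with 18% lower, and 4 were past 2-fold, against 4.38%. The ratios of ST-HSC to LT-HSC were 3.49 (3.25 to 3.76) for Cpox, 3.45 (2.80 to 4.27) for Uros, 2.74 (2.30 to 3.29) for Ppox, 2.50 (2.23 to 2.81) for Fech, 1.96 (1.84 to 2.08) for Alad and 1.91 (1.69 to 2.17) for Slc25a38. Urod was at 1.44 (1.34 to 1.55) and Alas1 at 0.92 (0.74 to 1.16). Alas2, below the limit for a measured gene, was at 2.48 (1.27 to 5.15) on 32 against 13 UMIs, and at 1.73 (0.83 to 3.74) without the 6 cells of 10 or more Hbb-bs UMIs per 10000. In the same cells other genes of the erythroid course also differed: Klf1, an erythroid transcription factor, was at 2.02 (1.90 to 2.16), Tfrc, the transferrin receptor, at 3.23 (2.98 to 3.51), Hbb-bs at 32.0 (23.6 to 44.4) and Gata1 at 1.18 (1.09 to 1.27). Without those 6 cells Hbb-bs was at 10.6 (7.74 to 14.9), and Cpox at 3.47 (3.23 to 3.73). The median cell had 24982 UMIs in the LT-HSC and 38060 in the ST-HSC library, and its part in the result was not tested.

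Among Car1-high cells, 2 of 8 genes were at least 1.5-fold higher in ST-HSC than LT-HSC, against 19% of 8838 genes: Uros at 2.33 (1.70 to 3.15) and Cpox at 1.89 (1.71 to 2.09). That share is near the background, which was 13.3% higher and 15% lower with TMM factors, against 10.7% lower without. Among Hlf-high cells 0 of 8 genes passed 1.5-fold in either direction, against 16.3% of 10731 genes higher and 13.5% lower. Urod was at 0.70 (0.63 to 0.77), Fech at 0.76 (0.66 to 0.87), Cpox at 0.84 (0.73 to 0.96) and Alas1 at 1.10 (0.95 to 1.28). Cycling cells made up 24.2% of ST-HSC and 3.23% of LT-HSC Hlf-high cells.

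Over all kept cells, Alas1 was at 28.0 CPM (27.0 to 29.0) in ST-HSC and 17.5 (16.5 to 18.6) in LT-HSC, a ratio of 1.59 (1.49 to 1.71) and the 1 gene of 8 past 1.5-fold upward, against 24.9% of 10412 genes. Alad, at 63.4 against 107 CPM, and Urod, at 47.1 against 91.6 CPM, were past it downward, against 10.3% of genes, with ratios of 0.59 (0.57 to 0.61) and 0.51 (0.50 to 0.53). With TMM factors 19.2% of genes were higher and 16.2% lower. Alas1 then lost its call and 3 of 8 genes were lower. Cpox was at 0.69 (0.67 to 0.72), Slc25a38 at 0.74 (0.70 to 0.79), Fech at 0.77 (0.73 to 0.81), Uros at 0.97 (0.88 to 1.06) and Ppox at 1.04 (0.96 to 1.13). Without cells of 10 or more Mpo UMIs per 10000, Alas1 was at 17.7 CPM in ST-HSC, a ratio of 1.01 (0.94 to 1.09). Without cells of 10 or more Car1 UMIs per 10000, Alad was at 0.72 (0.68 to 0.76) and Urod at 0.54 (0.51 to 0.57), so that Alad was no longer past the limit. Fewer cells of a class and less RNA per cell cannot be told apart in these library totals.

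Mpo-high cells carried 36.4% of the Alas1 UMIs of the ST-HSC library, with 5.15% of all its UMIs and 3.05% of its cells. In a comparison added after this was seen, Alas1 was 10.1-fold (9.31 to 11.0) higher in Mpo-high than Hlf-high cells, and it was the 1 gene of 8 past 1.5-fold, against 12.5% of 10264 genes higher and 37.3% lower (22.9% and 24.2% with TMM factors). The other 7 lay between 0.80 (0.54 to 1.15, Uros) and 1.32 (1.10 to 1.56, Cpox), and with TMM factors Cpox also passed 1.5-fold. After thinning to 5000 UMIs, 50.2% (43.2 to 57.3) of Mpo-high and 8.39% (7.51 to 9.33) of Hlf-high cells held an Alas1 UMI. Cycling cells were 43.3% of Mpo-high and 24.2% of Hlf-high cells, and among cells without the cycling ones the log2 ratio of Alas1 was 3.52, beside 3.34 in all. The Mpo-high cells also held 439 CPM of 5 mast cell and basophil markers, 0 of them undetected. Their part in the result was not tested.

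By Mpo level, Alas1 stood at 16.8 CPM (16.0 to 17.7) in 5541 ST-HSC cells under 1 UMI per 10000, at 22.4 (20.2 to 24.8) in 880 cells of 1 to 10, at 120.5 (110.2 to 131.5) in 142 cells of 10 to 50 and at 309 (288 to 333) in 82 cells of 50 to 100. Over the same ranges Cpox stood at 60.7, 18.4, 21.3 and 30.4 CPM and Alad at 69.0, 43.2, 41.4 and 37.8 CPM. The first of these ranges takes in cells of any Car1 level. Dntt-high cells did not share the pattern: 0 of 8 genes passed 1.5-fold against Hlf-high cells in either direction, beside 2.67% of 10456 genes higher and 7.53% lower, and Alas1 was at 1.11 (0.96 to 1.28).

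**Figure D4:**
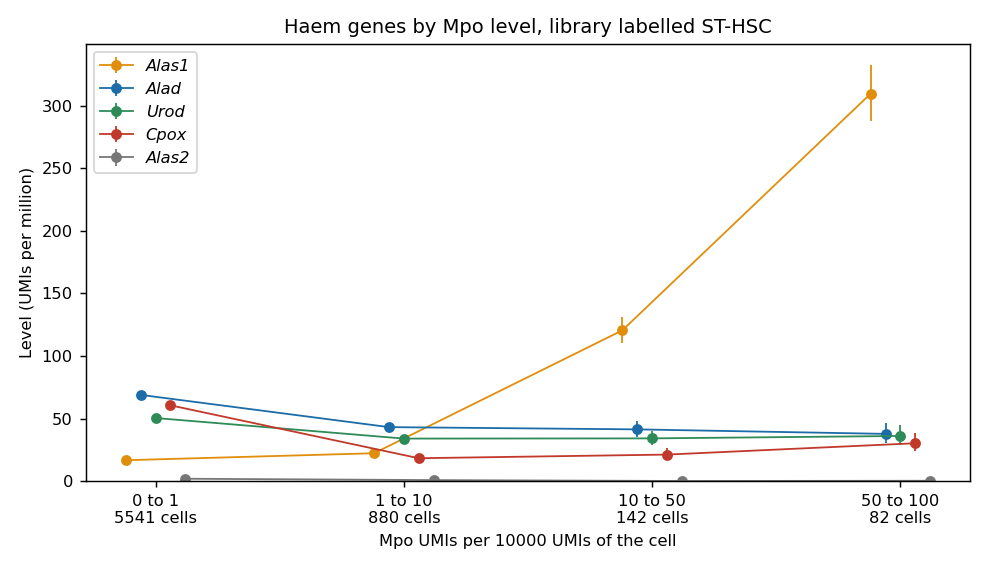
Level of Alas1, Alad, Urod, Cpox and Alas2 in the ST-HSC library (CPM) by the Mpo level of the cell (UMIs per 10000, number of cells under each range; 3 cells of 100 or more are not drawn); bars are exact Poisson 95% intervals. Alas1 stands at 16.8 CPM in the first range and 309 in the last. Alad, Urod and Cpox are lower in the last range than in the first, which takes in cells of any Car1 level. Against Hlf-high cells, Mpo-high cells are at 1.10 (0.95 to 1.26) for Alad, 1.07 (0.92 to 1.23) for Urod and 1.32 (1.10 to 1.56) for Cpox.

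Across the 8 combinations of library and class with at least 50 cells, levels of the 6 downstream enzymes and Slc25a38, as log2(CPM + 1), had Pearson correlations of 0.59 (Urod with Ppox) to 0.98 (Alad with Cpox) with each other. Alas1 had correlations of -0.34 to -0.67 with the rest. The genes most like Alas1 among 8517 that reached 20 CPM in a group were Chst13 (0.997), Dmkn (0.991), Wfdc21, Trem3 and Cldn15 (each 0.99), and the likeness turns on the single Mpo-high group. Those most like Alas2, whose own values rest on few UMIs, were Arhgap5 (0.98), Plaat3 (0.97), Epb41, Sox6 and Jak2 (each 0.95). All these points share libraries, and the correlations are descriptions.

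The neighbouring steps of haem metabolism were read from lists in the LT-HSC comparison of Car1-high with Hlf-high cells, where 17.5% of all genes were higher and 45.1% lower. Of the haem transport and turnover list, 7 of 18 measured genes were at least 1.5-fold higher and 4 lower, with a median log2 ratio of 0.05. Tspo2, an erythroid membrane protein of the translocator family, was 46.6-fold (35.2 to 63.1) higher, Blvrb, a biliverdin reductase, 12.6-fold (11.8 to 13.6) and Tmem14c, which moves protoporphyrinogen into the mitochondrial matrix, 4.48-fold (4.23 to 4.75), while Hmox2, a haem oxygenase that breaks haem down, was at 0.39 (0.36 to 0.42). For glycine and succinyl-CoA supply, 3 of 8 genes were higher and 0 lower, with a median of 0.47. Shmt2, the mitochondrial serine hydroxymethyltransferase that yields glycine, was at 2.46 (2.14 to 2.84), and the succinyl-CoA enzymes Suclg1 and Dlst were at 1.79 (1.67 to 1.92) and 1.76 (1.58 to 1.98).

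For iron-sulphur cluster assembly, which ferrochelatase depends on, 7 of 14 genes were higher and 1 lower, with a median log2 ratio of 0.58. Glrx5, a glutaredoxin of cluster transfer, was at 5.75 (5.36 to 6.17), Iba57 at 2.99 (2.24 to 4.07) and Bola3 at 2.85 (2.66 to 3.06). Among regulators of haem genes 4 of 20 were higher and 6 lower, with a median of -0.52. Klf1 was at 47.2 (34.4 to 66.5) and Gata1 at 20.7 (16.3 to 26.7), and Foxo1 and Hif1a, a forkhead and a hypoxia factor, were at 0.16 (0.13 to 0.21) and 0.31 (0.27 to 0.35). Klf1, Gata1, Tspo2 and Blvrb also stand in the erythroid marker list. Of haem users 4 of 9 were higher and 0 lower, led by Cycs (cytochrome c) at 5.07 (4.75 to 5.42) and Cyc1 (cytochrome c1) at 3.34 (3.11 to 3.58).

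Of the 5 globins, which carry the haem of red cells, 2 were measured in the LT-HSC library. Both were lower in Car1-high than Hlf-high cells. Hbb-bt was at 0.033 (0.024 to 0.045), from 2.39 against 71.6 CPM, and Hbb-bs at 0.55 (0.39 to 0.77), from 3.57 against 6.49 CPM. Each passed the filter of 5 CPM only through the Hlf-high cells, which fixes part of the direction. For ST-HSC, the lists named above gave 10 of 19, 2 of 8, 8 of 14, 7 of 20 and 6 of 9 genes higher, against 19.9% of all genes. There 2 of 3 measured globins were higher, Hba-a1 at 11.7 (8.28 to 16.3) and Hbb-bs at 2.89 (1.65 to 4.74), and Hbb-bt was lower at 0.64 (0.49 to 0.81). Only 1 globin was measured where Mpo-high or Dntt-high cells were set against the same Hlf-high cells. Hba-a1 and Hbb-bs thus passed the filter through the Car1-high cells, which fixes part of their direction. Over all kept cells 4 of 4 measured globins were at least 1.5-fold higher in ST-HSC than LT-HSC, against 24.9% of genes. Hbb-bs and Hba-a1, at 4.41 and 2.01 CPM in LT-HSC, passed the filter of 5 CPM only through ST-HSC. A further globin, Hba-a2, stood at 0.588 CPM in LT-HSC and could reach the filter only in the same way. The filter thus fixes a large part of this count. A few cells carried much of the difference: Hbb-bs was at 44.2 against 4.41 CPM, a ratio of 10.0 (8.90 to 11.3), and at 1.60 (1.40 to 1.84) without the 9 ST-HSC cells of 10 or more Hbb-bs UMIs per 10000. Hba-a1 went from 14.4 (12.1 to 17.3) to 5.30 (4.42 to 6.40) and Hbb-bt from 2.62 (2.48 to 2.78) to 2.17 (2.05 to 2.30). Among Hlf-high cells 0 of 2 measured globins were higher and 1 lower. Over all kept cells 0 of 14 iron-sulphur genes were higher and 8 lower, against 10.3%.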

How the data were processed

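The authors deposited UMI counts per gene and barcode for each library, not normalized. The labels name the 10x Genomics 3' v2 kit. The counts were made with Cell Ranger 7.2 on mm10 per the submitters' processing notes, and written by Cell Ranger 7.1.0 per the file headers. The strand setting and the annotation are not given in the sources used here.

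Barcodes with at least 1000 genes and under 10% of UMIs from mt- genes were kept. UMIs were summed per class of cells and divided by the class total (CPM). CPM carries an exact Poisson interval, a ratio the exact conditional binomial interval (Clopper-Pearson) of a pair of sums, and a share an exact Clopper-Pearson interval, each at 95%. A gene was measured at a mean of 5 CPM or more, and called by size at 1.5-fold. With 1 library per group cells are not replicates and no test was run. The ratio interval was checked on simulated Poisson counts, which have the spread that the interval assumes. That check cannot show how the interval holds for counts that vary more between cells. No cells were left out as doublets: Scrublet (scanpy 1.11.5) marked 7 LT-HSC cells (0.257%) and 0 ST-HSC cells, which is too few to be a working call, and an alternative left out the 64 and 403 cells of highest score. Python 3.11.15, numpy 2.4.6, scipy 1.17.1, pandas 2.3.3 and matplotlib 3.10.9 were used, with edgeR 4.0.16 in R 4.3.3 for TMM factors. Thinning drew 5000 UMIs per cell without replacement and left out shallower cells, 68 of LT-HSC (16 Hlf-high, 3 Pf4-high, 2 Car1-high) and 281 of ST-HSC (150 Hlf-high, 16 Dntt-high). Alternatives were other fold limits, scalings, cell filters, class limits and cycling limits.

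The genes, lists, class limits and markers were chosen with earlier results of these data known. Named were the 9 genes, in each neighbouring list up to 4 measured genes of largest log2 ratio in the LT-HSC comparison of Car1-high with Hlf-high cells, and the 5 genes most like Alas1 and Alas2. Other genes named (Tfrc, Hba-a2, Hba-a1 and the markers beside results) were chosen after their values were seen. 1 listed symbol was not found, and 1 gene the rule names is not reported here. Comparisons of Mpo-high and Dntt-high cells, the range of 10 to 50 Car1 UMIs, the Hbb-bs and Mpo ranges, the 0.2% cycling limit and the values without globin-rich cells were added after seeing the data.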

Additional observations from a re-analysis of the deposited data

Results flagged for a closer look

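Barcodes below the limits on genes and mitochondrial UMIs were outside every comparison of the report, and 4 levels of haem synthesis genes in them lay above those of the kept cells by more than counting error. Uros and Slc25a38 were also higher in the LT-HSC barcodes left out, at 14.4 against 10.5 CPM and 30.9 against 29.0 CPM, within counting error. In the LT-HSC library, Alas2 stood at 74.3 CPM (52.0 to 103) in the 216 barcodes left out, from 36 UMIs in 4 barcodes, beside 1.31 CPM in kept cells. The same 216 barcodes held 12280 Hbb-bs UMIs in 5 barcodes and 5001 Hba-a1 UMIs in 7. Fech stood at 76.3 CPM (53.7 to 105) in them, from 37 UMIs in 22 barcodes, beside 33.7 CPM in kept cells. In the ST-HSC library, Alas2 stood at 15.3 CPM (10.0 to 22.4) in the 938 barcodes left out, from 26 UMIs in 5 barcodes, beside 1.77 CPM. Alas1 stood at 38.3 CPM (29.6 to 48.8) in these 938, from 65 UMIs in 36 barcodes, beside 28.0 CPM. Median depth of the barcodes left out was 1228 UMIs (LT-HSC) and 991.5 UMIs (ST-HSC).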

How the results depend on the processing

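No paired analysis was possible because each group has 1 library. Of 284 alternative counts of genes called, 253 stayed within 1.5 times of the value reported and 31 moved. Counts of 0 that stayed 0 are among the 253. Of 1113 alternative values of single genes 981 stayed, 132 moved and 0 reversed among called values. The count of 7 of 8 genes higher in Car1-high than Hlf-high cells stayed within 1.5 times in both libraries. Over all cells, ST-HSC against LT-HSC, the count higher was 0 at 2-fold, with the mean of cells' CPM, with TMM or median-of-ratios factors, and without Mpo cells, and the count lower was 5 at the looser fold limit planned and without cycling cells, 0 at 2-fold, and 1 among cycling cells alone and without Car1 cells. In Car1-high against Hlf-high cells the count lower, 0 as reported, was 1 among cycling cells alone in LT-HSC (Alas2), and 1 at the looser fold limit, under 5% mitochondrial UMIs, with class limits cut by 2 and among cycling cells alone in ST-HSC (Alas1). In Pf4-high against Hlf-high cells the count higher was 0 at 2-fold and the count lower 1 among cycling cells alone. Between the libraries, Car1-high cells gave 4 higher at the looser fold limit and with class limits cut by 2, 1 higher at 2-fold, and 1 lower at the looser fold limit and among cycling cells alone. Hlf-high cells gave 2 lower at the looser fold limit, and 1 lower with class limits cut by 2, without cycling cells and among cycling cells alone. Mpo-high against Hlf-high cells gave 2 higher at the looser fold limit and with TMM or median-of-ratios factors, and 1 lower at the looser fold limit and among cycling cells alone. The Alas2 share of synthase UMIs was 9.60% in LT-HSC with every barcode, 5.54% without and 9.80% among cycling cells alone, 4.61% without and 7.74% among cycling cells alone in ST-HSC, and 36.8% among cycling Hlf-high LT-HSC cells, which number 25. The cause of these moves was not tested, beyond the stricter or looser limit itself. The planned 1% cycling limit left out 1 cell in all, so 0.2% was used. With class limits raised by 2, the ST-HSC library had 0 Car1-high cells and gave no value. Depth limits Alas2 most, whose values in most classes rest on under 100 UMIs.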

Other observations

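Mpo-high cells of the ST-HSC library, where Alas1 was highest, were also set against Hlf-high cells for the lists of neighbouring genes. In this comparison 12.5% of all measured genes were at least 1.5-fold higher and 37.3% lower. With TMM factors the background was 22.9% higher and 24.2% lower, while the list counts below were made without them. Of the genes for glycine and succinyl-CoA supply, 3 of 8 were higher and 0 lower, with a median log2 ratio of 0.41 beside -0.32 over all genes. They were Shmt2 at 2.01 (1.79 to 2.24), Shmt1 at 1.74 (1.52 to 1.99) and Suclg1 at 1.63 (1.53 to 1.73). Of haem users 2 of 9 were higher and 1 lower, with a median log2 ratio of 0.007. The higher ones were Cycs at 3.35 (3.18 to 3.54) and Cyc1 at 2.15 (2.01 to 2.29). Of the transport and turnover list 4 of 17 were higher and 4 lower. Tmem14c was at 2.40 (2.26 to 2.54), and Blvrb, the biliverdin reductase that was 12.6-fold higher in Car1-high LT-HSC cells, was at 0.65 (0.54 to 0.76).

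Regulators of haem genes were 0 of 18 higher and 11 lower in Mpo-high cells, with a median of -0.72. Bach1, a haem-binding repressor, was at 0.53 (0.45 to 0.62) and Foxo1 at 0.20 (0.14 to 0.28). Klf1 and Gata1 were near 2 to 3 CPM on both sides, at ratios of 0.94 (0.49 to 1.67) and 1.5 (0.86 to 2.47). The members named here were chosen after their values were seen.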
